A study of Drosophila melanogaster with 6 samples.

Results

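The genes described here are 9 genes of the cAMP and protein kinase A (PKA) pathway, Pka-R1, Pka-R2, Pka-C1, Pka-C2, Pka-C3, rut, dnc, Epac and CrebB, out of 17471 genes counted in each library. They were chosen by gene name when the read counts of both genotypes were already known, so their levels and genotype differences are given as a description. The intervals and calls printed for them come from a fit across all genes and support no claim about them. The libraries came from projection neurons of the anterodorsal lineage (adPNs), olfactory relay neurons of the Drosophila brain, taken between 36 and 40 h after puparium formation, 3 from wild-type flies and 3 labelled acj6 mutant, with acj66 in their titles. acj6 encodes a POU-domain transcription factor of this lineage, and the study's title asks how it directs dendrite targeting through cell-surface proteins. The labels do not give the lesion, the driver that marked the cells, the number of flies or whether libraries came from separate animals, so any spread between libraries may be technical.

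cAMP is made from ATP by adenylyl cyclases, which G-protein-coupled receptors switch on or off, and is broken down by phosphodiesterases. Inactive PKA is a complex of regulatory and catalytic subunits. cAMP binds the regulatory subunits and frees the catalytic ones to phosphorylate their targets, among them the transcription factor CREB. A second cAMP sensor, Epac, acts without PKA by activating the small GTPase Rap1. In flies the cyclase gene rut and the phosphodiesterase gene dnc are classic learning genes studied in the mushroom body, and cAMP signalling is also known for roles in axon growth and synapse formation.

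Gene counts per library ranged from 24467328 to 38279909. At these totals 3 reads correspond to between 0.0784 and 0.123 CPM (counts scaled to the library total). The CPM values of genes given here are scaled to that total times the TMM factor of the library, as in the fit. These factors ran from 1.01 to 1.03 in the wild-type libraries and from 0.966 to 0.989 in the mutant ones. For every gene count, the wild-type files listed between 3.21 and 4.16 alignments to more than 1 place, and the mutant files at most 2.95. The part of that difference in the values below was not tested. The genotype label could not be checked on acj6 itself, because its count was higher in the libraries labelled mutant (149 ± 7.96 and 251 ± 24.2 CPM, SD, n = 3 in each group) and covers the whole gene. The adPN marker C15 stood at 162 ± 30.2 CPM in the wild type and 159 ± 19.1 CPM in the mutant, and the acetylcholine synthesis gene ChAT at 66.8 ± 9.26 and 71.6 ± 18.8 CPM. In the same list of adPN and neuron markers, kn stood at 453 ± 45.8 and 1332 ± 137 CPM and brp at 3793 ± 157 and 5845 ± 89.8 CPM. That list summed to between 6152 and 6655 CPM in wild-type libraries and between 9251 and 9348 CPM in mutant-labelled ones. The glial marker repo reached at most 3.04 CPM and the Kenyon cell marker ey at most 6.15 CPM in any library. Markers of other brain neurons, 7 genes in all, summed to between 221 and 339 CPM in wild-type libraries and between 113 and 154 CPM in mutant-labelled ones. DAT was the 1 gene of that list called, lower in the mutant, and Vmat (128 ± 56.5 and 54.5 ± 12.4 CPM) was the largest single part of the sum. Of 8 adPN and neuron markers 3 were called higher (acj6, kn and brp) and none lower, and no gene was called in the lists for glia, Kenyon cells, hemocytes and fat body, muscle or progenitors. Most glial reads came from Gs2 (163 ± 19.4 and 133 ± 23.5 CPM), most Kenyon cell marker reads from mamo (334.5 ± 22.2 and 309.6 ± 47.6 CPM), and the progenitor marker wor had 0 reads. The part of these cells in the differences below was not tested. In bulk libraries, fewer cells of a type and less RNA per cell cannot be told apart.

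Among the members, the largest difference between the genotypes was a lower level of the PKA subunit transcript Pka-R1 in the mutant. Pka-C1 was lower and Epac higher by smaller margins, and Epac varied widely between the mutant libraries. Pka-R1 stood in the mutant at 0.348 of its wild-type level, Pka-C1 at 0.605 and Epac at 1.74. Pka-R2 was lower in each mutant library by a smaller margin, Pka-C3 was alike in both groups, and rut and dnc were somewhat higher in each mutant library. CrebB was scarce and variable, and Pka-C2 was close to absent. Of the 8 members with enough reads to be fitted, 3 were lower and 3 higher in every mutant library than in every wild-type library, and 2 overlapped. Across all 9229 fitted genes, 11.5% were lower and 11.7% higher in this way, 23.2% together. edgeR's quasi-likelihood test with Benjamini-Hochberg adjustment over all those genes (adjusted p under 0.05, "called" here) placed Pka-R1 and Pka-C1 among its lower genes, which are 1.33% of genes, and Epac among its higher ones, which are 3.07%. Calls in either direction were 4.40% of genes. Since these values were known when the members were chosen, nothing is read from the comparison of shares.

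**Figure D1:**
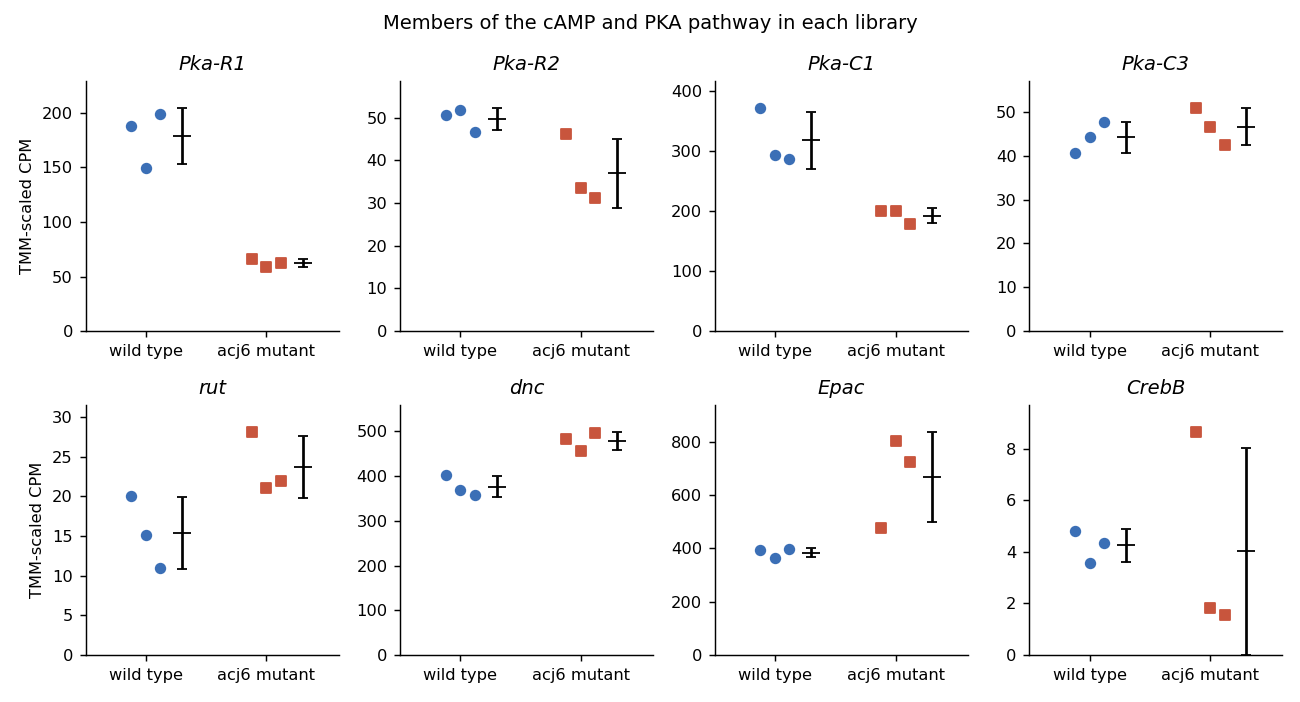
TMM-scaled CPM (vertical axis, from 0) of 8 members in each wild-type library (circles) and each acj6 mutant library (squares), with the group mean and SD as a bar beside the points. Pka-R1 lies between 149.5 and 199 CPM in the wild type and between 58.4 and 65.7 CPM in the mutant, while Pka-C3 overlaps and CrebB is spread widely in the mutant.

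The regulatory subunits hold PKA inactive and decide where in the cell it sits. Pka-R1 encodes the type I subunit, whose mutants have been studied for olfactory learning in flies. It was counted at 188, 149.5 and 199 CPM in wild-type replicates 1 to 3 and at 65.7, 58.4 and 62.5 CPM in acj6 mutant replicates 1 to 3. The mutant values lay close together and well under the lowest wild-type library. The group means were 179 ± 25.8 and 62.2 ± 3.68 CPM, and the fitted log2 fold change (mutant minus wild type) was -1.52 ± 0.15 (SE), with a 95% interval from -1.87 to -1.17. Between 1746 and 5265 reads stood behind each value, so counting error was small beside the spread between libraries. Over the 14 alternative settings its log2 fold change ran from -1.63 to -1.44.

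Pka-R2 encodes the type II subunit, which anchoring proteins tether to membranes and cytoskeleton. It was at 50.6, 51.7 and 46.7 CPM in the wild type and at 46.1, 33.6 and 31.1 CPM in the mutant. The groups were separated by less than 1 CPM, between wild-type replicate 3 and mutant replicate 1. Its fitted log2 fold change of -0.43 ± 0.21 had an interval from -0.90 to 0.05 and ran over the settings from -0.62, without mutant replicate 1, to -0.31, without mutant replicate 3. Pka-R2 was not among the called genes in any setting.

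In these libraries the balance between both regulatory genes differed between the groups, which mostly restates the lower level of Pka-R1. Per kilobase of median transcript length, the scale used here whenever genes are compared with each other, Pka-R1 was 2.44, 1.90 and 2.79 times Pka-R2 in the wild-type libraries and 0.935, 1.14 and 1.32 times in the mutant ones. Being ratios within a library, these values do not depend on how libraries are scaled. Pka-R2 made up 30.0% ± 4.14 of the summed regulatory level in the wild type and 47.2% ± 4.29 in the mutant (SD, n = 3). With the longest transcript of each gene as its length, the shares were 19.97% and 34.2%, since Pka-R2 has transcripts from 1614 to 4108 bases and the files do not tell which were expressed.

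The catalytic subunits phosphorylate serine and threonine residues of target proteins. Pka-C1, the main PKA catalytic gene of the fly, was at 372, 293 and 287 CPM in the wild type and at 199, 199.6 and 178 CPM in the mutant. Every mutant library lay below every wild-type library, and wild-type replicate 1 was the highest. The means were 318 ± 47.2 and 192 ± 12.5 CPM, with a log2 fold change of -0.72 ± 0.13 (interval from -1.03 to -0.42). Pka-C1 was called in 10 of 14 alternative settings. It lost the call without wild-type replicate 2 (log2 fold change -0.77), mutant replicate 1 (-0.75), mutant replicate 2 (-0.75) or mutant replicate 3 (-0.66), and kept it without wild-type replicate 1 (-0.59) or 3 (-0.79).

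Pka-C3, a catalytic relative outside the main PKA genes, was at 40.6, 44.3 and 47.6 CPM in the wild type and at 50.9, 46.6 and 42.4 CPM in the mutant. The groups overlapped, and the interval of the log2 fold change (0.08 ± 0.18) ran from -0.33 to 0.49. Small differences could not be resolved with 3 libraries a group. Pka-C2 gave 1 read in wild-type replicate 3, 1 read in mutant replicate 2 and 0 in the other libraries. These counts lie under the floor of 3 reads per library, so no fold is given. Per kilobase, Pka-C1 was 3.48 ± 0.796 times Pka-C3 in the wild type and 1.97 ± 0.0903 times in the mutant, and its share of the summed catalytic level was 77.2% ± 3.75 and 66.3% ± 1.03.

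Summed over their genes, regulatory subunits were lower in the mutant by more than catalytic ones in these libraries. The regulatory sum was 78.4 ± 7.01 CPM per kb in the wild type and 36.5 ± 4.67 in the mutant, and the catalytic sum 80.2 ± 7.93 and 56.7 ± 4.05. The ratio of catalytic to regulatory level was 1.09, 1.07 and 0.911 in the wild-type libraries and 1.43, 1.72 and 1.54 in the mutant ones. These values did not overlap, but how often ratios of other genes separate in this way was not counted. These are transcript levels, and the amounts of subunit protein were not measured.

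**Figure D2:**
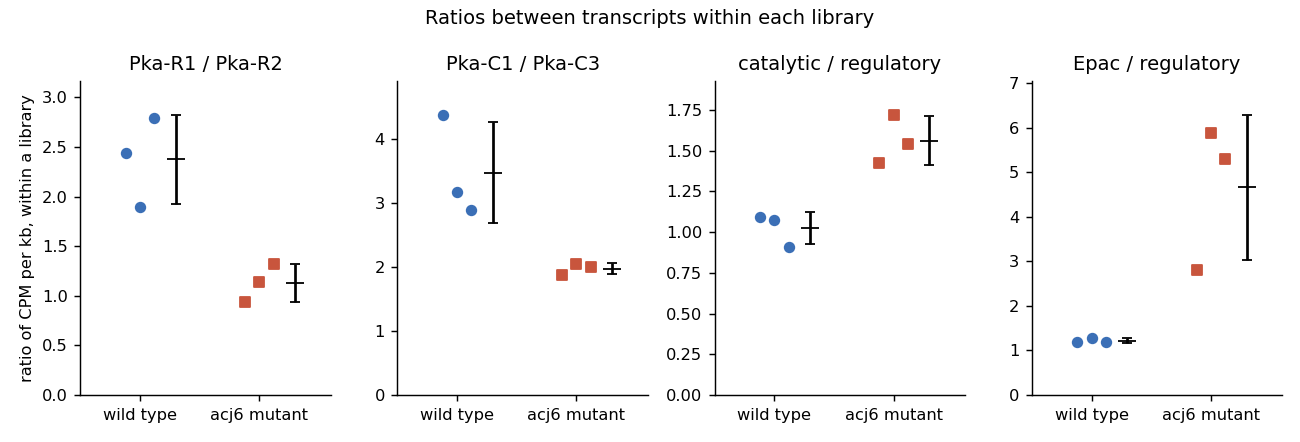
Ratios between TMM-scaled CPM per kb of median transcript length within each library (vertical axes, from 0), for wild-type (circles) and acj6 mutant libraries (squares), with group means and SDs as bars. The Pka-R1 to Pka-R2 ratio averages 2.38 in the wild type and 1.13 in the mutant, and the ratio of Epac to the regulatory sum averages 1.22 and 4.66.

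Epac encodes the exchange factor that cAMP activates toward Rap1. It was at 393, 364 and 397 CPM in the wild type and at 476, 802 and 726 CPM in the mutant. All mutant libraries were above all wild-type libraries, but mutant replicate 1 stood much nearer to the wild type than the other two. The means were 385 ± 18.3 and 668 ± 170.8 CPM and the log2 fold change 0.80 ± 0.18 (interval from 0.40 to 1.20). Epac was called in 6 of 14 alternative settings. Of the leave-outs it kept the call only without mutant replicate 1, where the log2 fold change was 0.99. Its log2 fold change was 0.82 without wild-type replicate 1, 0.76 without wild-type replicate 2, 0.82 without wild-type replicate 3, 0.64 without mutant replicate 2 and 0.74 without mutant replicate 3. limma-voom (0.76), removal of the length trend (0.67) and the replicate block (0.76) also ended its call. Against the summed regulatory subunits, Epac was 1.19, 1.28 and 1.18 times as high per kilobase in the wild type and 2.81, 5.88 and 5.31 times as high in the mutant. The size of these ratios depends on the median lengths used, and their higher values in the mutant partly restate the lower level of Pka-R1.

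rut encodes the calcium- and calmodulin-responsive adenylyl cyclase that detects coincident signals in learning. Its values were 20.03, 15.1 and 11.0 CPM in the wild type and 28.2, 21.0 and 22.0 CPM in the mutant. The highest wild-type and the lowest mutant library were 1 CPM apart. The log2 fold change was 0.63 ± 0.30, with an interval from -0.06 to 1.32. Over the settings it ran from 0.33, once each library's trend on transcript length was removed, to 0.87, without wild-type replicate 1. At a median of 8963 bases, rut has the longest transcripts among the 9 members. rut was not called in any setting.

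dnc encodes the cAMP-specific phosphodiesterase that ends the signal. It was at 403, 368 and 358 CPM in the wild type and at 484, 456 and 497 CPM in the mutant. The groups did not overlap, although the difference was small, with means of 376.5 ± 23.7 and 479 ± 21.2 CPM and a log2 fold change of 0.35 ± 0.10 (interval from 0.12 to 0.57). dnc was not called by edgeR with all libraries, and was called by DESeq2, which called 10.2% of the genes it adjusted. With the length trend removed its log2 fold change was 0.24. rut, dnc and CrebB lie on the X chromosome, and the labels do not give the sex of the flies. The dosage compensation RNA roX1 was at 1531 ± 131 CPM in the wild type and 2996 ± 287 CPM in the mutant, and roX2 at 500.0 ± 64.3 and 484 ± 54.8 CPM. The median log2 fold change was 0.01 over 1560 fitted X-linked genes and -0.01 over 7518 autosomal ones. The part of sex or dosage in the values of rut, dnc and CrebB was not tested.

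CrebB encodes the fly CREB protein, the nuclear target of PKA needed for long-term memory. It was at 4.82, 3.58 and 4.37 CPM in the wild type and at 8.68, 1.84 and 1.57 CPM in the mutant. Mutant replicate 1 was the highest of all libraries and the other mutant libraries were the lowest. The log2 fold change of -0.08 ± 0.76 had an interval from -1.80 to 1.65, and became -1.32 without mutant replicate 1, 0.27 without mutant replicate 2 and 0.32 without mutant replicate 3. Between 55 and 327 reads stood behind these values. In the gene models, 6.89% of the exon bases of CrebB are shared with por, a gene on the other strand at 112 ± 20.5 and 98.4 ± 14.2 CPM. The strand setting of the counting is not given in the sources used here, so reads of both genes may not be separable and the CrebB level is uncertain.

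**Figure D3:**
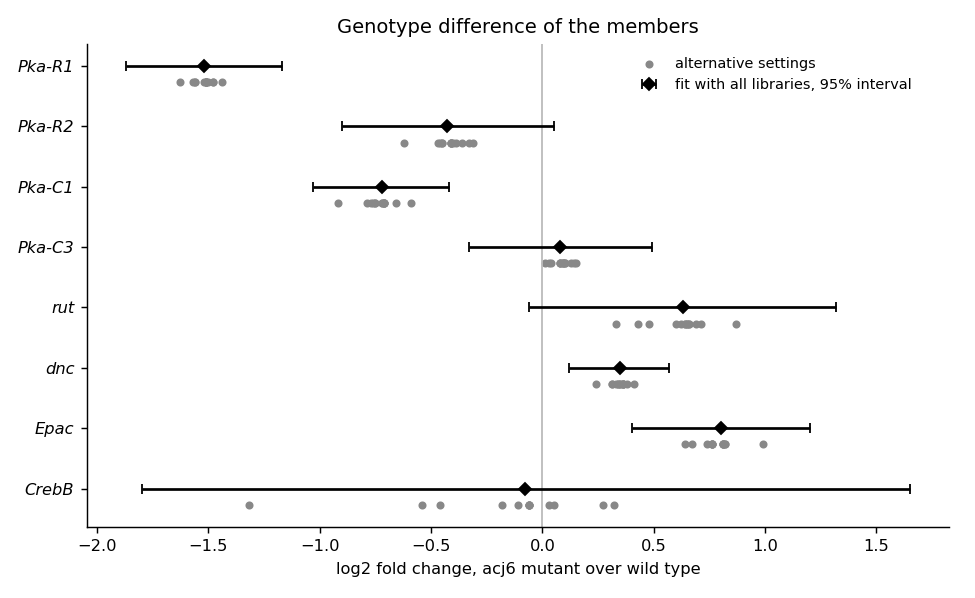
Log2 fold change of each fitted member, acj6 mutant over wild type (horizontal axis), with the 95% interval of the fit to all 6 libraries (diamonds and bars) and the values under the alternative settings (small points). The points of Pka-R1 lie between -1.63 and -1.44, those of CrebB between -1.32 and 0.32.

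The order of levels per kilobase of median transcript length also differed between genotypes. In the wild type it ran from dnc (98.2 ± 6.18 CPM per kb) and Epac (95.1 ± 4.52), whose libraries overlapped, through Pka-C1 (62.1 ± 9.23) and Pka-R1 (55.1 ± 7.96), which overlapped as well. Pka-R2 (23.3 ± 1.23) came next and did not overlap with either neighbour, followed by Pka-C3 (18.1 ± 1.45). CrebB (2.04 ± 0.301) and rut (1.71 ± 0.505) overlapped at the low end. In the mutant Epac (165 ± 42.2) and dnc (125 ± 5.52) overlapped at the top, and Pka-C1 (37.6 ± 2.45) stood alone below them. Pka-R1 (19.2 ± 1.13), Pka-C3 (19.1 ± 1.74) and Pka-R2 (17.3 ± 3.78) overlapped there, whereas Pka-R1 and Pka-R2 had been apart in the wild type. Among fitted genes with a known length, the wild-type level of dnc lay at the 88.2 percentile, that of Epac at 87.9, Pka-C1 at 82.1, Pka-R1 at 80.2, Pka-R2 at 64.6, Pka-C3 at 59.6, CrebB at 25.4 and rut at 23.1. Median transcript lengths come from current gene models, and dnc alone has 17 transcripts of 2167 to 11128 bases, so these levels are approximate. The order and overlaps hold for median lengths only. With the longest transcripts as lengths, dnc falls below Epac, Pka-C1 and Pka-R1 in the wild type. Pka-R2 then lies below Pka-R1 in every mutant library, without overlap.

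**Figure D4:**
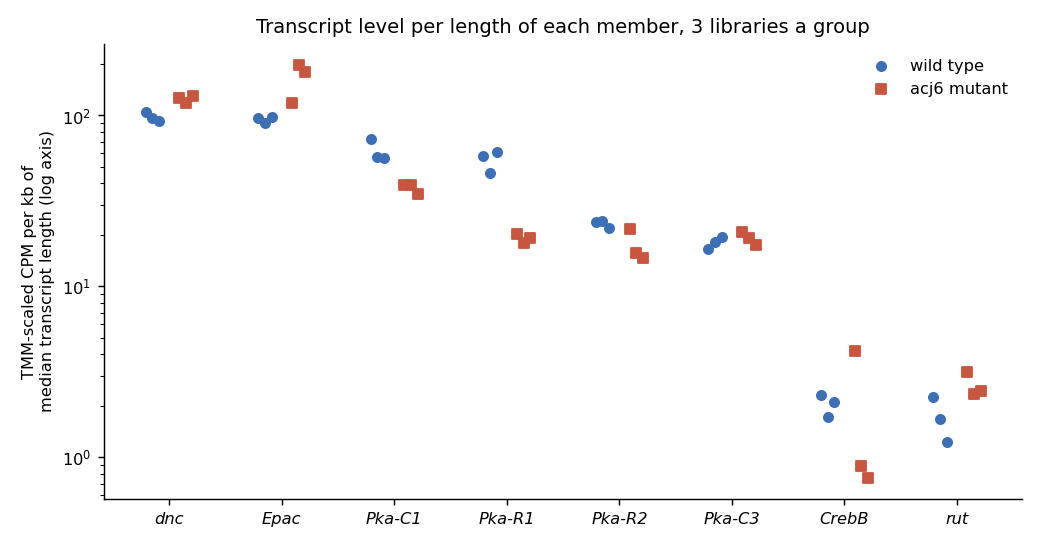
TMM-scaled CPM per kb of median transcript length (log axis) of 8 members in wild-type (circles) and acj6 mutant libraries (squares), ordered by the wild-type mean. By median length, Pka-R1 moves from the level of Pka-C1, 55.1 against 62.1 CPM per kb, to that of Pka-R2 and Pka-C3 in the mutant. With the longest transcripts as lengths, Pka-R2 lies below Pka-R1 in the mutant too.

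Genes with the most similar course over the 6 libraries were ranked by the root-mean-square difference of log2 CPM centred on each gene's mean, among genes of at least 20 CPM. The nearest to Pka-R1 were the polyubiquitin gene Ubi-p5E (difference 0.09, from 182, 168 and 182 CPM to 66.5, 58.2 and 64.7 CPM) and peg (0.161). Ubi-p5E has near-identical copies of its repeat elsewhere, so its counts are uncertain. The nearest to Pka-C1 were CG2269 and the RNA-binding protein gene Hrb27C (0.061 each), and to Epac CG1371 (0.066) and CG32533 (0.10). CG1371 was at 114, 103 and 108 CPM in the wild type and at 148, 239 and 200.3 CPM in the mutant, with mutant replicate 1 again nearest to the wild type. rut was nearest to ebo (0.058) and BRWD3 (0.11), dnc to wun (0.027) and mimi (0.049), Pka-R2 to Sox14 (0.076) and CG14100 (0.084), and Pka-C3 to eca (0.04) and ND-20 (0.048). CrebB had larger differences, 0.318 to osp and 0.345 to SIFaR. Its own spread over the libraries was also the largest, at 0.825 in log2, against 0.108 for Pka-C3. The differences of unlike members are therefore not comparable. With 6 libraries in 2 groups, such likeness mostly reflects a similar genotype difference.

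Of the other genes of the pathway, 1 of 69 fitted was called (1.45%), beside 4.40% of all fitted genes, and whether these shares differ was not tested. That list held 77 genes in 11 functional groups, of which 8 had too few reads to be fitted. Its median log2 fold change was -0.03, against -0.01 over all fitted genes. The gene called was GABA-B-R2, a subunit of the inhibitory metabotropic GABA receptor, which couples to Gi and lowers cAMP. It was at 186, 255 and 234 CPM in the wild type and at 417, 390 and 343 CPM in the mutant, without overlap. Its log2 fold change was 0.77 ± 0.14 and the p adjusted over all fitted genes, from edgeR, was 0.0220. That adjusted p was 0.0607 without wild-type replicate 3, 0.0727 without mutant replicate 1, 0.0716 without mutant replicate 2 and 0.0709 with the length trend removed. GABA-B-R1, the other GABA-B receptor gene of the list, overlapped between the groups, at 219.9 ± 24.7 and 229.6 ± 56.1 CPM. Its log2 fold change was 0.06 in the fit with all libraries. In this fit no gene of the list was called lower, 6 had a lower level at an unadjusted p under 0.05 and 12 a higher one, and DESeq2 called 2 lower and 8 higher. edgeR under other settings also called Pde8, cno, Nf1, Sik3, DopEcR and Gbeta13F, the last 2 lower and only with the length trend removed. Counts by edgeR for the groups that follow are from the fit with all 6 libraries and the settings given first.

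**Figure D5:**
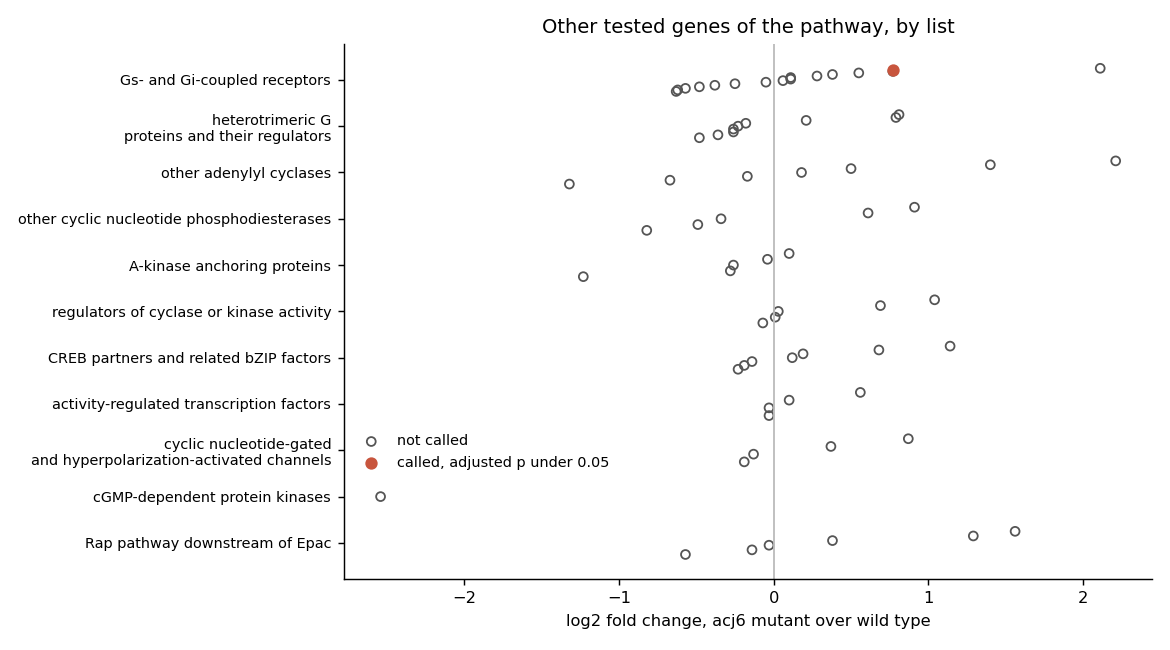
Log2 fold change, acj6 mutant over wild type (horizontal axis), of the 69 other fitted pathway genes, by functional group (vertical axis). The filled point is GABA-B-R2 at 0.77, the 1 called gene, and open circles are genes not called.

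Upstream of the cyclases, none of the 9 fitted genes for heterotrimeric G proteins and their regulators was called by edgeR, while 1 was higher and 2 lower at an unadjusted p under 0.05 and DESeq2 called 1 higher. Gbeta13F, the main beta subunit, was the most abundant at 2341 ± 86.8 and 1957 ± 111 CPM, without overlap. Its log2 fold change was -0.26, and -0.35 with the length trend removed, where edgeR called it (adjusted p = 0.0364). Galphas, which stimulates the cyclases, was at 92.4, 88.7 and 66.0 CPM in the wild type and at 55.7, 54.7 and 66.9 CPM in the mutant, and the groups overlapped. Among 12 other adenylyl cyclases 7 were fitted, and 0 were called by edgeR or DESeq2 or passed an unadjusted p of 0.05. Ac76E was by far the most abundant, at 545 ± 47.9 and 616 ± 55.9 CPM. Per kilobase it reached 102.5 ± 9.01 in the wild type, against 1.71 ± 0.505 for rut and 7.69 ± 1.70 for Ac3, so most cyclase reads came from a gene other than rut.

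Among the 5 other phosphodiesterase genes none was called by edgeR, with 2 higher and 1 lower at an unadjusted p under 0.05, and DESeq2 called 1 in each direction. The most abundant was Pde8, which hydrolyses cAMP, at 133, 168 and 122 CPM in the wild type and at 249, 362 and 187 CPM in the mutant. Its groups did not overlap, and its log2 fold change of 0.91 ± 0.23 had an adjusted p of 0.0680 in edgeR. edgeR called Pde8 with no filter (adjusted p = 0.0112), with the stricter filter (0.0420), with the replicate block (0.0243) and without mutant replicate 3 (0.0438), and DESeq2 called it too. Pde11 was at 82.8 ± 29.9 and 46.8 ± 9.60 CPM. Per kilobase dnc was the highest phosphodiesterase gene, with 98.2 ± 6.18 against 35.6 ± 6.10 for Pde8 in the wild type. Pde11 was chosen after its values were seen, as were GABA-B-R1, Galphas, Ac3, cno and rg, the cell type markers other than the most abundant of each list, and por, roX1 and roX2.

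Of the anchoring proteins that bind PKA regulatory subunits, 5 were fitted and none called by edgeR or DESeq2, with 1 lower at an unadjusted p under 0.05. Akap200 was the most abundant, at 503, 583 and 494 CPM in the wild type and at 429, 462 and 425 CPM in the mutant, with an adjusted p of 0.238 in edgeR. rg, the fly relative of neurobeachin, was at 2.11 ± 0.678 and 0.895 ± 0.520 CPM, but 94.4% of its exon bases are shared with CG15465 on the same strand, so its level is uncertain. Among 7 CREB partners and related factors the most abundant was crc, the fly relative of ATF4, at 260 ± 29.5 and 236 ± 13.6 CPM. Of its exon bases 73.5% are shared with CG46314 on the same strand, so its level is uncertain too. edgeR called none of the 7 factors, with 2 higher at an unadjusted p under 0.05, and DESeq2 called 2 higher. None of the 4 activity-regulated transcription factors was called by either tool, with 1 higher at an unadjusted p under 0.05. Among them kay, the fly Fos gene, was the most abundant at 97.9 ± 20.8 and 144 ± 36.2 CPM.

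Downstream of Epac, none of the 6 genes of the Rap pathway was called by edgeR, with 2 higher at an unadjusted p under 0.05 and 1 called higher by DESeq2. Rap1, the target of Epac, was at 139.5, 168 and 185 CPM in the wild type and at 149, 151 and 148 CPM in the mutant, and these values overlapped. cno, a scaffold that binds active Rap1, was at 19.8 ± 9.77 and 58.2 ± 24.3 CPM, with a log2 fold change of 1.56 ± 0.41 and an adjusted p of 0.0763 in edgeR. edgeR called cno with no filter (adjusted p = 0.0145), with the stricter filter (0.0473) and with the replicate block (0.0217), and DESeq2 called it too. Among the remaining groups capt (174.5 ± 14.4 and 175.7 ± 16.9 CPM) was the most abundant regulator of cyclase or kinase activity, and Cngl, a cyclic nucleotide-gated channel gene, stood at 153 ± 8.61 and 198.5 ± 20.5 CPM. for, the gene of a cGMP-dependent kinase, averaged 1.2 ± 1.14 CPM in the wild type and 0.202 ± 0.223 CPM in the mutant. edgeR called none of these 3, and DESeq2 called Cngl (log2 fold change 0.39) but neither of the others.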

How the data were processed

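The authors deposited a file of raw read counts for each library, summed by gene and not normalized. Per the labels, cDNA was made by a SMART-seq2 method with modifications. The submitters' processing notes name HTSeq 0.11.2, the aligner STAR 2.5.4 and, for base calls, bcl2fastq 2.19.0.316. Neither the genome build nor the annotation release or strand setting is given in the sources used here, so no coordinates or sequences are printed. Of 17575 entries per file, 17471 genes were used. Library sizes and tests left out 96 spike-in, 3 transgene and 5 summary entries. Between 8.59% and 10.9% as many reads as the gene counts fell in no annotated gene. Symbols matched 17242 genes by identifier, and lengths, chromosome arms and exon overlaps came from Ensembl 115 models.

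Genes passing filterByExpr (9229) were scaled with TMM and tested with edgeR 4.0.16 (quasi-likelihood, two-sided, R 4.3.3) on genotype over 6 libraries, with Benjamini-Hochberg adjustment over all genes. The test was checked on simulated counts. Alternatives used DESeq2 1.42.0, limma-voom (limma 3.58.1), other scalings and filters, a replicate block, a length-trend offset and each library left out. Members and lists were chosen with earlier results of these data known. Genes named beyond the members are the called genes and the most abundant gene of each list, and the 2 genes most like each member. Other genes named were chosen after their values were seen. No pair of libraries of a group agreed within counting noise (57.3 to 114 for chi-square over degrees of freedom). Read counts carry no molecular identifiers, so floors cover counting error only.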

Additional observations from a re-analysis of the deposited data

Results flagged for a closer look

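Entries outside the gene table held reads in each library. The mCD8-GFP transgene, a membrane-tagged fluorescent marker, had from 76483 to 169250 counts per library, above the floor of 3 counts, and the ERCC spike-in entries together had from 15 to 35 counts.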

How the results depend on the processing

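The direction of 7 fitted members was the same in all alternatives tried, and only that of CrebB changed. Its log2 fold change ran from -1.32 to 0.32 with 1 library left out and was 0.05 with the length trend removed. CrebB was fitted in 13 of 14 alternatives, as it did not pass the stricter filter. As a description of the fits, Pka-R1 was called in 14 of 14 settings, Pka-C1 in 10 and Epac in 6, and with 1 library left out between 1 and 2 members were called instead of 3. With the length trend removed, the log2 fold change of Pka-C1 was -0.92 and that of dnc 0.24. Over all genes 406 were called, against 940 with DESeq2 and 143 to 249 with 1 library left out. Other pathway genes called numbered 1, against 10 with DESeq2, 5 with no filter, 3 with the stricter filter (at least 5 CPM in 3 libraries), 2 with the length trend removed and 0 to 2 with 1 library left out. The cause of these changes was not tested, except that leaving a library out leaves fewer samples. With the longest transcript as length, the share of Pka-C1 was 69.1% in the mutant and that of Pka-R2 19.97% in the wild type and 34.2% in the mutant. With no division by length the shares were 87.6% and 80.5% for Pka-C1 and 22.0% and 37.0% for Pka-R2.

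Same-numbered libraries of both genotypes did not visibly deviate together (correlations over genes of 0.016, -0.001 and 0.047). Unlike-numbered ones ran from -0.055 to 0.042. Such small values cannot show whether same-numbered libraries were prepared together. With the replicate number as a block, 293 genes, 3 other pathway genes and 2 members (Pka-R1 and Pka-C1, not Epac) were called.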
